A study of Mus musculus with 9 samples.

Results

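The genes described here are the cyclin-dependent kinase (CDK) inhibitors and the D-type cyclins, 10 genes chosen by name: Cdkn1a, Cdkn1b and Cdkn1c of the Cip/Kip family, Cdkn2a, Cdkn2b, Cdkn2c and Cdkn2d of the Ink4 family, and Ccnd1, Ccnd2 and Ccnd3. Each was read at the probe set that carries its symbol alone and has the highest mean over all arrays. This gave 9 of the 10 genes, out of 19935 genes read in the same way. The only Cdkn1a probe set also carries the symbol of a neighbouring transcript, so p21 is not analysed here. Adult mice of a mixed C57BL/6 background gave right ventricle with septum, whose RNA was hybridised to Affymetrix arrays, 1 heart per array. The 5 wild-type hearts have the genotype Ezh2f/f in the labels and carry no Cre, although their titles name a floxed allele over a wild-type one. The 4 Ezh2-deficient hearts are Ezh2f/f;Mef2cAHF::Cre. The Mef2c anterior heart field enhancer drives Cre in embryonic progenitors of the right ventricle, septum and outflow tract, so cells of other origin in the tissue keep their Ezh2. Loss of Ezh2 and presence of the Cre transgene cannot be told apart in this design.

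A cell enters S phase when D-type cyclins bind CDK4 or CDK6 and phosphorylate the retinoblastoma protein, which frees E2F factors to transcribe replication genes. Ink4 proteins bind CDK4 and CDK6 and keep the D-type cyclins from them, while Cip/Kip proteins bind whole cyclin and CDK complexes and mainly stop those of CDK2. Cardiac muscle cells leave the cell cycle soon after birth, and in the adult heart most dividing cells are endothelial cells, fibroblasts and leukocytes. Ezh2 is the methyltransferase of Polycomb repressive complex 2, and the Cdkn2a and Cdkn2b locus is among its best known targets in cultured cells. The comparison asks whether the brake and accelerator genes of this step differ between adult hearts with and without Ezh2 in the progenitors of these regions.

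Cdkn2a shows why a gene-level array value needs care. Its upstream start gives the transcript of Arf, which stabilises p53, and a start 12427 bases downstream gives p16Ink4a, the CDK4 and CDK6 inhibitor. Both share later exons, the array has 1 single-symbol probe set for the gene, and the annotation assigns 2 RefSeq transcripts to it, so its value does not separate the 2 products. The RefSeq windows of both starts are shown, with every CG dinucleotide in capitals, because they differ in the CpG content by which Polycomb targets are often recognised. Both lie on the minus strand of GRCm38.p6, 250 bases before to 50 after the start, at chr4:89294570-89294869 (upstream) and chr4:89282143-89282442 (downstream).
Cdkn2a upstream start: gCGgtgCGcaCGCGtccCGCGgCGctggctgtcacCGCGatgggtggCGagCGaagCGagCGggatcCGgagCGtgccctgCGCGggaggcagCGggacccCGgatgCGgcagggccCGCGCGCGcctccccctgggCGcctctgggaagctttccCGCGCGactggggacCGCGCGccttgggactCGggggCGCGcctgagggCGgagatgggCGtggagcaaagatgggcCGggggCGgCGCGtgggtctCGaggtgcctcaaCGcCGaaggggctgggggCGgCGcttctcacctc
Cdkn2a downstream start: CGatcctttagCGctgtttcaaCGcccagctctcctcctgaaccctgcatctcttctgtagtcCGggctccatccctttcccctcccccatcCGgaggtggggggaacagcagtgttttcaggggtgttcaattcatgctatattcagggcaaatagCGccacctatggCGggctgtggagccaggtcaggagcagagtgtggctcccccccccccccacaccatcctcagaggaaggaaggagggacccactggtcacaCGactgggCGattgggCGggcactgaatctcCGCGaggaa
The upstream window holds 45 CG dinucleotides, more than 98.1% of the 32851 windows of the same length in the table, and the downstream window holds 12, more than 60.4% of them. The E2F-type motif TTTNNCGC, searched on both strands, occurs once in each window, at -99 to -92 bases from the upstream start and -244 to -237 from the downstream one. It occurs in 5.17% of all windows and in 2 of the 11 windows of the members, which come from 7 of the 10 genes. Among the other inhibitors the windows of Cdkn2c held 33 and 8 CG dinucleotides, that of Cdkn2b 18, that of Cdkn1b 30, that of Cdkn2d 22 and those of Cdkn1a 2 and 23, against a median of 7 over the table. Cdkn1c, Ccnd1 and Ccnd2 have no entry in it. These matches describe letters, and no binding or methylation was measured.

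Some facts of the arrays touch the results. All values are log2, as deposited, and the median of an array was 7.19 to 7.25. Wild-type arrays 4 and 5 stood apart on the first principal component (30.7% of the variance) and Ezh2-deficient array 3 on the second (24.0%). Sample titles hold an e or an x, whose meaning is not stated; e marks wild-type hearts 1 and 2 and Ezh2-deficient hearts 1 and 4. A prime, also unexplained, follows the x of wild-type hearts 3 and 5 and Ezh2-deficient heart 2. Y-linked genes read low in 1 wild-type heart (4) and in 2 Ezh2-deficient hearts (1 and 3). Among x hearts those without a prime, wild-type heart 4 and Ezh2-deficient heart 3, are the ones with low Y-linked genes. Prime and Y-linked level cannot be told apart there. The Ezh2 probe set read 8.89, 8.60, 8.68, 8.81 and 8.66 in wild-type hearts and 8.94, 8.74, 8.98 and 8.86 in Ezh2-deficient hearts. The groups overlapped, with a difference of 0.15 (SE 0.07, limma adjusted p = 0.485). Where in the transcript the probes lie is not given, so this value does not check the labels. Cardiomyocyte markers were bright, as the tissue label says: the dimmest of 10 averaged 12.8.

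None of the 9 genes passed the test of Ezh2-deficient against wild-type hearts, made with limma over all 28815 probe sets at an adjusted p under 0.05. Of all probe sets 0.0347% passed, 0.0243% with a higher and 0.0104% with a lower mean. At an unadjusted p under 0.05 there were 3 of the 9, Ccnd2, Cdkn2a and Cdkn2c, all with a higher mean in Ezh2-deficient hearts; 10.7% of all probe sets had such a p, 5.23% with a higher and 5.45% with a lower mean. The mean was higher for 7 of the 9, for Cdkn1b and Cdkn1c lower, where 47.1% of all probe sets had a higher mean. The median difference of the 9 was 0.12, against -0.01 over all probe sets. The 9 genes were chosen by name with earlier results of these data known, so these counts describe them and are no test. In whole tissue, more cells of a type and more RNA per cell cannot be told apart.

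**Figure D1:**
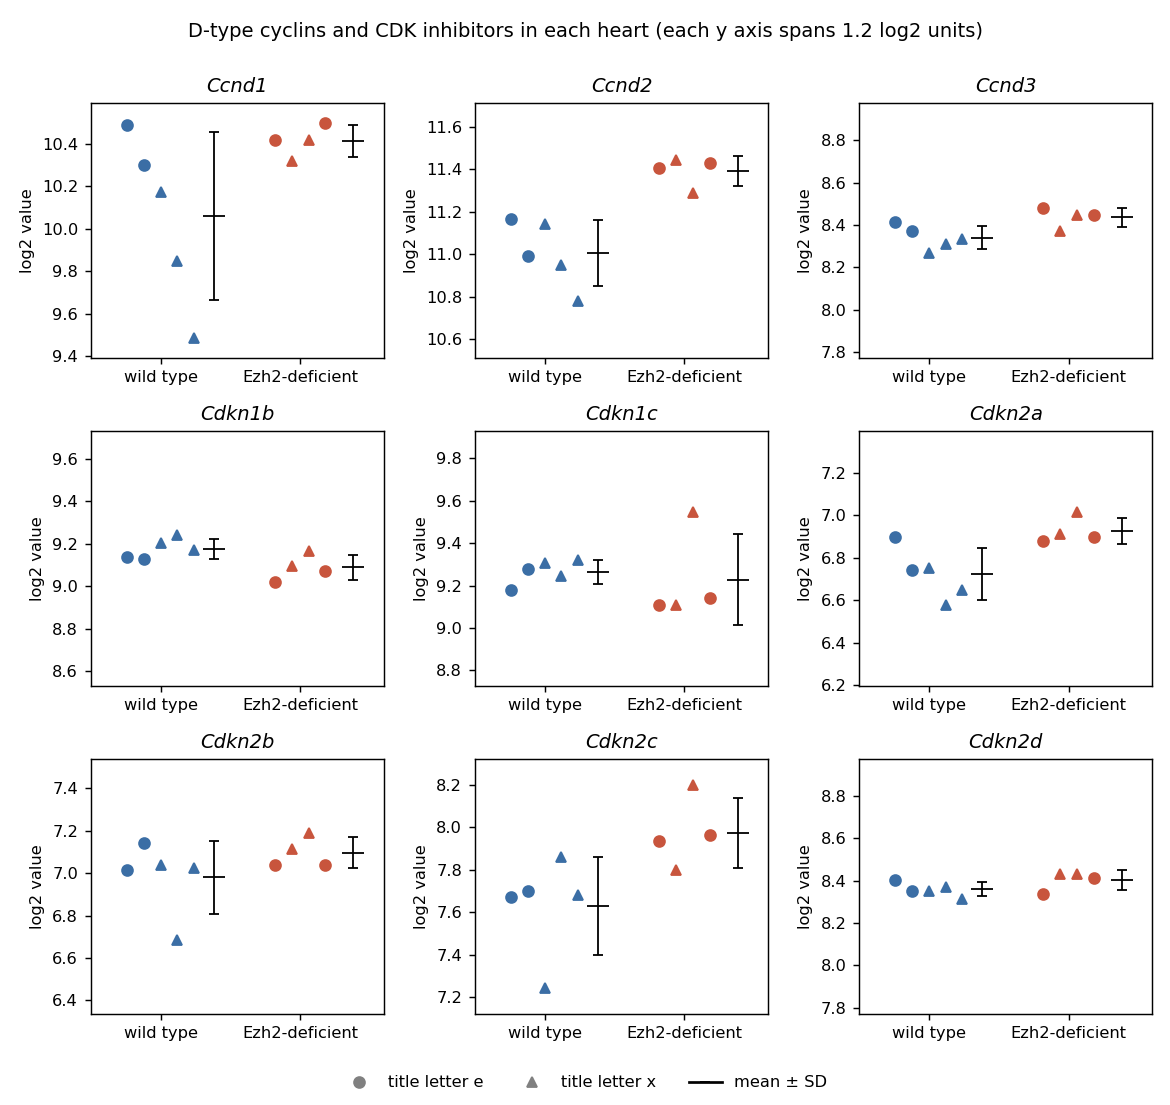
The log2 value of each gene in each heart, wild type (blue, n = 5) and Ezh2-deficient (red, n = 4), with circles for title letter e, triangles for title letter x and black bars for the mean ± SD. Every y axis spans the same range, so that the separated groups of Ccnd2, the wide wild-type spread of Ccnd1 and the narrow spread of Cdkn2d can be compared by eye.

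Among the D-type cyclins, Ccnd2 had the clearest separation. Cyclin D2 is, with D1, the main D-type cyclin of embryonic heart muscle, and forced cyclin D2 lets adult mouse cardiomyocytes re-enter the cycle. Ccnd2 read 11.17, 10.99, 11.14, 10.95 and 10.78 in wild-type hearts 1 to 5 and 11.41, 11.44, 11.29 and 11.43 in Ezh2-deficient hearts 1 to 4. All 4 Ezh2-deficient hearts lay above all 5 wild-type hearts, with a gap of 0.12 between the nearest. It was the only one of the 9 genes whose groups did not overlap; 3.71% of all probe sets had such groups, 1.79% with Ezh2-deficient hearts higher and 1.91% with them lower. The difference was 0.39 (SE 0.08, 95% interval 0.21 to 0.56), a fold of 1.31, from 11.01 ± 0.16 (SD, n = 5) to 11.39 ± 0.07 (SD, n = 4). Its limma adjusted p of 0.129 missed the threshold, and 155 probe sets (0.538%) had a p as small. The exact two-sided permutation test gave p = 0.00794, the smallest that 126 assignments allow, in a family of 9 such tests. Among e hearts Ccnd2 differed by 0.34 and among x hearts by 0.41. Leaving out wild-type arrays 4 and 5 gave 0.29.

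Ccnd1, the D-type cyclin most responsive to growth factors, differed mainly through 2 wild-type hearts. It read 10.49, 10.30, 10.17, 9.85 and 9.49 in wild-type hearts and 10.42, 10.32, 10.42 and 10.50 in Ezh2-deficient hearts. The Ezh2-deficient values spanned 0.18 and the wild-type values 1.002, and wild-type heart 1 lay within the Ezh2-deficient range. The difference of 0.35 (SE 0.18, 95% interval -0.04 to 0.74, limma adjusted p = 0.51) became 0.09 without wild-type arrays 4 and 5 (adjusted p = 0.737, in a range of 0.288 to 0.791 over the alternatives) and 0.21 without array 5 alone. It was 0.06 among e hearts and 0.53 among x hearts. The interaction of genotype with letter was 0.47 (SE 0.25, limma adjusted p = 0.732). The interaction test was passed by 0% of all probe sets, and 6.12% had an unadjusted p under 0.05. Of the 9 genes 0 passed it by limma, and 0 had an unadjusted p under 0.05.

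Ccnd3, the D-type cyclin that many differentiated cells keep, varied little. Its wild-type values were 8.41, 8.37, 8.27, 8.31 and 8.34 and its Ezh2-deficient values 8.48, 8.37, 8.45 and 8.45. In 3 of 4 Ezh2-deficient hearts it read above every wild-type heart, and heart 2 lay among them. The difference was 0.10 (SE 0.04, 95% interval -0.002 to 0.19, limma adjusted p = 0.477; exact permutation p = 0.0397), and 0.08 without wild-type arrays 4 and 5.

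Fibroblast and endothelial markers, like Ccnd1 and Ccnd2, had higher means in Ezh2-deficient hearts, and as single genes 0 of them passed. This direction was not particular to these 2 lists. All 13 leukocyte, 8 epicardial, 5 atrial and 4 red cell markers had a higher mean too, as did 8 of 10 smooth muscle markers. The atrial list mean varied widely, from 8.49 (heart 3) to 10.36 in wild-type and from 9.31 to 10.89 in Ezh2-deficient hearts. Its direction therefore says little. Of 10 cardiomyocyte markers 9 had a lower mean and 1 a higher one, and 0 of the markers in these other lists passed. The mean over 15 fibroblast markers lay between 9.99 and 10.61 in wild-type and between 10.74 and 10.99 in Ezh2-deficient hearts. All 15 had a higher mean in Ezh2-deficient hearts and 11 (73.3%) had an unadjusted p under 0.05, while 0 passed over all probe sets. Over all probe sets 5.23% had such a p with a higher mean. Postn, which encodes the matrix protein periostin, differed by 1.37 (SE 0.19, limma adjusted p = 0.0554), and Mfap4 and Mfap5, microfibril-associated genes, by 0.93 and 0.80. These had the smallest p of the 15, whose differences ran from 0.12 to 1.37 with a median of 0.52. The mean over 14 endothelial markers lay between 9.73 and 10.25 in wild-type and between 10.23 and 10.32 in Ezh2-deficient hearts. All 14 had a higher mean, 4 (28.6%) with an unadjusted p under 0.05, and 0 passed. Vwf differed by 0.75, Eng by 0.43 and Pecam1 by 0.33. They had the smallest p of the 14, whose differences ran from 0.04 to 0.75 with a median of 0.22. Without wild-type arrays 4 and 5 the difference of the list mean went from 0.56 to 0.46 for fibroblast markers and from 0.25 to 0.13 for endothelial markers. Wild-type heart 5, lowest for Ccnd1 and Ccnd2, was lowest for both marker means, and also for the leukocyte (8.10), smooth muscle (9.32), epicardial (6.59) and red cell (8.09) means. Ccnd3 was lowest in wild-type heart 3. The leukocyte means of Ezh2-deficient hearts 1 and 4 (8.49 and 8.48) lay within the wild-type range of 8.10 to 8.59. Every marker of both lists averaged above the median of all values, 7.22, the dimmest at 8.43 and 8.95. The part of these cell types in the cyclin values was not tested.

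**Figure D2:**
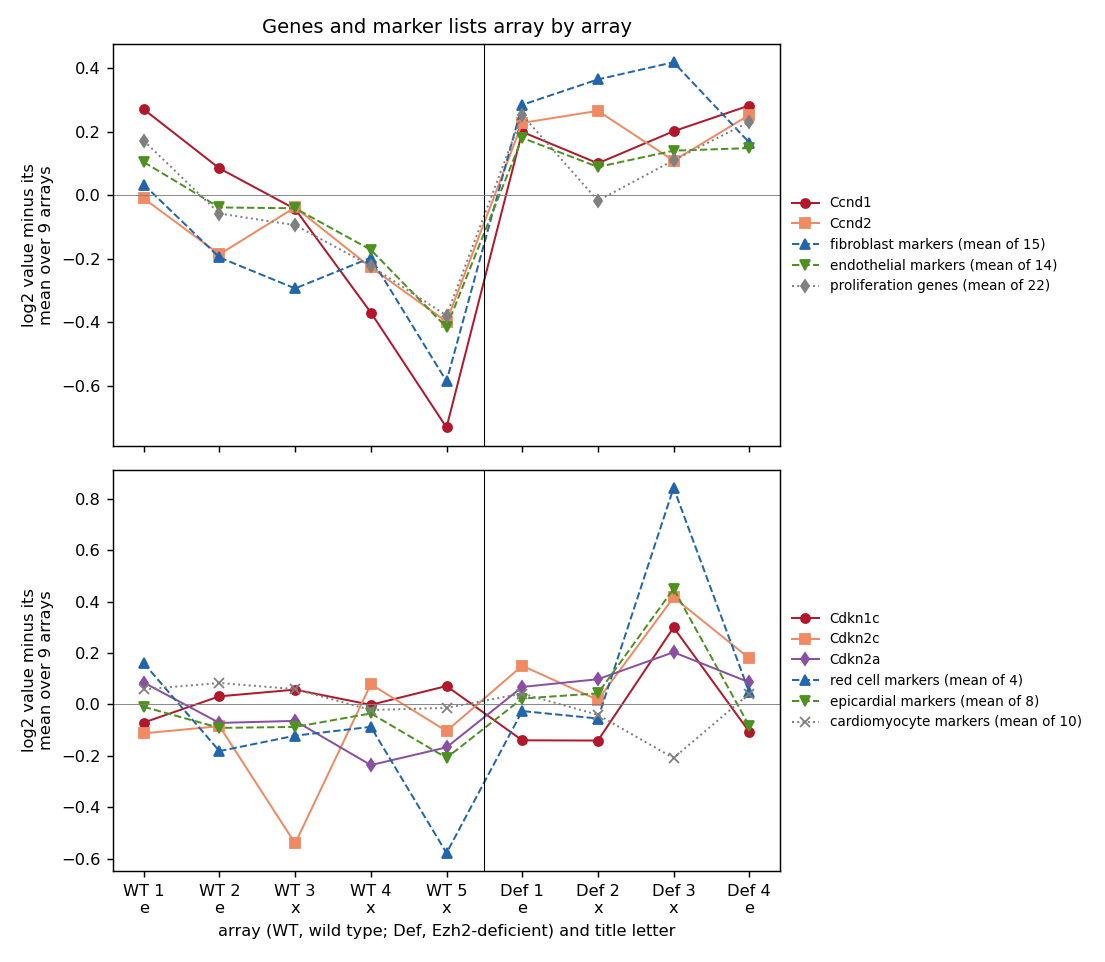
Values array by array, each minus its own mean over the 9 arrays (log2), for genes and for the means of marker lists; the vertical line parts wild-type (WT 1 to 5) from Ezh2-deficient arrays (Def 1 to 4), and lines only join values of 1 gene or list. In the upper panel Ccnd1, Ccnd2 and the fibroblast, endothelial and proliferation lists are all lowest in wild-type heart 5; in the lower panel Cdkn1c, Cdkn2c and Cdkn2a are highest in Ezh2-deficient heart 3, as are red cell and epicardial markers.

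Of the Ink4 genes, Cdkn2a and Cdkn2c differed most. Cdkn2a read 6.90, 6.74, 6.75, 6.58 and 6.65 in wild-type hearts and 6.88, 6.91, 7.02 and 6.90 in Ezh2-deficient hearts. Wild-type heart 1 reached the Ezh2-deficient range and the other 4 lay below it. The difference was 0.20 (SE 0.07, 95% interval 0.06 to 0.35, limma adjusted p = 0.315; exact permutation p = 0.0238). It came to 0.07 among e hearts and 0.31 among x hearts, and to 0.13 once wild-type arrays 4 and 5 were dropped. The probe set read below the median of all values (7.22) on all 9 arrays, and the table has no detection call, so this fold of 1.15 is that of a dim signal.

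Cdkn2b, which encodes p15Ink4b and lies next to Cdkn2a, was as dim, below 7.22 on all 9 arrays. Its values were 7.01, 7.14, 7.04, 6.68 and 7.02 in wild-type and 7.04, 7.11, 7.19 and 7.04 in Ezh2-deficient hearts. The value was the same, 7.039, in wild-type heart 3 and Ezh2-deficient hearts 1 and 4. Wild-type heart 4 stood alone at the bottom, and the groups otherwise overlapped. The difference of 0.12 (SE 0.09, 95% interval -0.08 to 0.31, limma adjusted p = 0.66) was 0.03 without wild-type arrays 4 and 5, 0.04 without array 4 alone and -0.04 among e hearts.

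Cdkn2c encodes p18Ink4c, an Ink4 inhibitor found in differentiating muscle. It read 7.67, 7.70, 7.24, 7.86 and 7.68 in wild-type and 7.93, 7.80, 8.20 and 7.96 in Ezh2-deficient hearts. In 3 Ezh2-deficient hearts it lay above every wild-type heart, with the highest value in heart 3 and the lowest of all in wild-type heart 3. The difference was 0.34 (SE 0.12, 95% interval 0.07 to 0.61, a fold of 1.27; limma adjusted p = 0.356, exact permutation p = 0.0238). The e hearts gave 0.26 and the x hearts 0.41. It was 0.44 without wild-type arrays 4 and 5, and 0.27 without Ezh2-deficient heart 3 or with the Y-linked mean as a covariate.

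Cdkn2d, encoding p19Ink4d, which with p27 keeps neurons out of the cycle, was nearly level. It ranged from 8.31 to 8.40 in wild-type hearts, with a median of 8.35, and read 8.34, 8.43, 8.43 and 8.41 in Ezh2-deficient hearts. The difference was 0.04 (SE 0.04, 95% interval -0.04 to 0.13, limma adjusted p = 0.72).

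**Figure D3:**
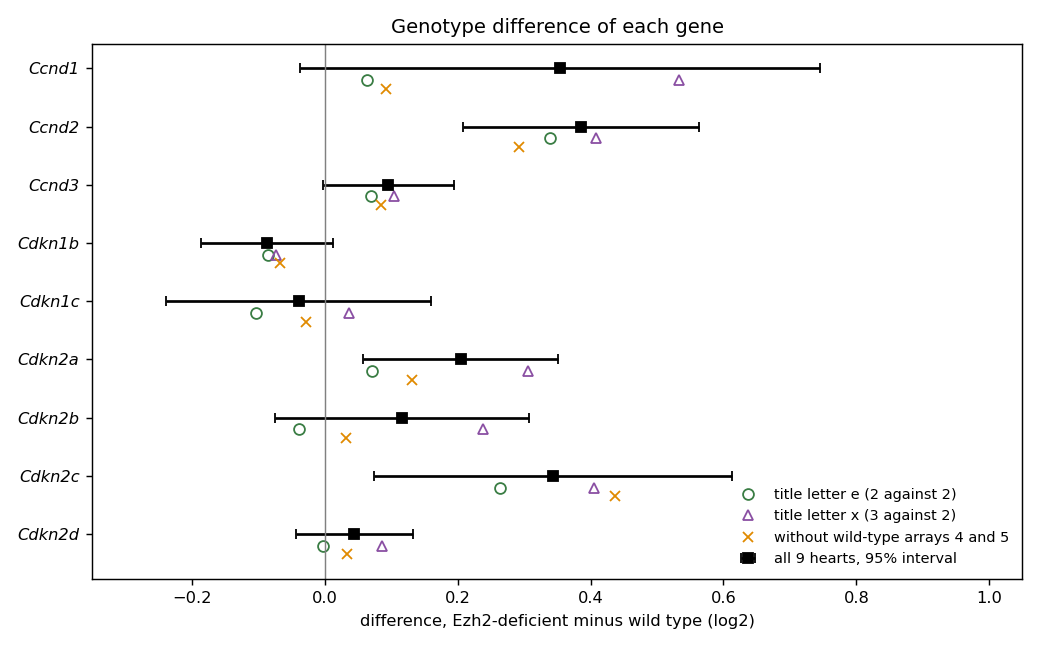
Difference of each gene, Ezh2-deficient minus wild type (log2), with its 95% interval from limma over all 9 hearts (black), and the same difference among e hearts, among x hearts and with wild-type arrays 4 and 5 left out. The Ccnd1 value of 0.35 shrinks to 0.09 without arrays 4 and 5, while Ccnd2 stays between 0.29 and 0.41 in the settings drawn.

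The Cip/Kip genes read had lower means in Ezh2-deficient hearts. Cdkn1b encodes p27Kip1, which accumulates as cardiomyocytes leave the cycle and is controlled largely through protein turnover, which arrays do not measure. It read 9.14, 9.13, 9.20, 9.24 and 9.17 in wild-type and 9.02, 9.10, 9.17 and 9.07 in Ezh2-deficient hearts. In 3 of 4 Ezh2-deficient hearts it lay below every wild-type heart. The difference was -0.09 (SE 0.04, 95% interval -0.19 to 0.01, limma adjusted p = 0.528; exact permutation p = 0.0556). A further Cdkn1b probe set gave -0.06 (SE 0.08, adjusted p = 0.817), and 0.01 without wild-type arrays 4 and 5.

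Cdkn1c encodes p57Kip2, an inhibitor expressed from the maternal allele. It read 9.18, 9.28, 9.31, 9.25 and 9.32 in wild-type and 9.11, 9.11, 9.55 and 9.14 in Ezh2-deficient hearts. Ezh2-deficient hearts 1, 2 and 4 lay below every wild-type heart and heart 3 above all of them. The difference was -0.04 (SE 0.09, 95% interval -0.24 to 0.16, limma adjusted p = 0.908), and -0.15 without heart 3 (adjusted p = 0.376, in a range of 0.376 to 1.0 over the alternatives).

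Ezh2-deficient heart 3 held the highest value of 4 of the 9 genes, Cdkn1c, Cdkn2a, Cdkn2b and Cdkn2c. Its mean over 4 red cell markers, with haemoglobin genes not read, was 9.51, against 8.09 to 8.83 in the other 8 hearts. Its epicardial mean (8 markers) was 7.24 against 6.59 to 6.84, and its mean over 13 macrophage and leukocyte markers 8.89 against 8.10 to 8.74. Its fibroblast mean (15 markers) was also the highest, 10.99, close to the 10.94 of Ezh2-deficient heart 2. Its cardiomyocyte mean (10 markers) was the lowest, 13.38 against 13.55 to 13.67. Over all hearts 0 of the 4 red cell and 0 of the 13 leukocyte markers had an unadjusted p under 0.05 by limma. Such a p was found for 3 of the 8 epicardial markers (37.5%), all with a higher mean, against 5.23% of all probe sets. Of each list 0 passed. The dimmest red cell, leukocyte and epicardial markers averaged 5.81, 5.79 and 4.98. The part of these cells in the inhibitor values was not tested.

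The partners of the D-type cyclins and inhibitors were measured at 31 of 32 genes listed. By limma 0 passed, and the median difference was 0.06. At an unadjusted p under 0.05 there were 3, all with a higher mean (9.68%, against 5.23% of all probe sets). These 3 were Cdc25b, a phosphatase that activates CDK1 (0.32, SE 0.08), Ccnb2, a mitotic cyclin (0.49, SE 0.16), and E2f1, an activating E2F (0.18, SE 0.06), with adjusted p of 0.232, 0.34 and 0.358. The kinases that D-type cyclins bind differed little, Cdk4 by 0.09 (SE 0.07) and Cdk6 by 0.11 (SE 0.09). Of the pocket protein genes, Rb1 differed by -0.004, Rbl2 by -0.09 and Rbl1 the other way by 0.19 (SE 0.11). Of E2F-driven replication and mitosis genes, 22 of 22 had a higher mean, with 0 passing and a median of 0.18. An unadjusted p under 0.05 was found for 8 (36.4%), where 5.23% of all probe sets had such a p with a higher mean. Aurkb, a mitotic kinase, differed by 0.26 (SE 0.10), Bub1, of the spindle checkpoint, by 0.74 (SE 0.28) and Mcm6, of the replicative helicase, by 0.32 (SE 0.13). Without wild-type arrays 4 and 5 these became 0.12, 0.40 and 0.27, and 0 of the 22 genes had an unadjusted p under 0.05 by limma, as was so without array 5 alone; without wild-type heart 4 there were 2, as there were without Ezh2-deficient heart 1 or 4, and dropping wild-type heart 1 gave 13. The mean over the 22 genes ran from 6.99 to 7.54 in wild-type and from 7.35 to 7.62 in Ezh2-deficient hearts, lowest in wild-type heart 5.

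Genes that p53 activates were measured at 18 of 20. By limma 0 passed, and the median was 0.06. At an unadjusted p under 0.05 there were 3 with a higher (16.7%) and 2 with a lower mean (11.1%). Over all probe sets these shares were 5.23% and 5.45%. Gadd45a, a growth arrest gene, read 9.20, 9.13, 9.52, 9.26 and 9.49 in wild-type and 8.65, 8.78, 8.95 and 8.89 in Ezh2-deficient hearts. The groups did not overlap, as in 3.71% of all probe sets, 1.91% with Ezh2-deficient hearts lower. Genes named for a small p tend to have such groups, so this adds no evidence. The difference was -0.51 (SE 0.10, limma adjusted p = 0.125). Phlda3, an inhibitor of Akt, differed the other way by 0.60 (SE 0.13, adjusted p = 0.144) and Eda2r, a receptor of the tumour necrosis factor family, by 0.18 (SE 0.05, adjusted p = 0.277). Phlda3 passed in the fit without Ezh2-deficient heart 4 (adjusted p = 0.0491, in a range up to 0.346 when other hearts were left out). Mdm2, the p53 ubiquitin ligase, and Ccng1 differed by -0.05 each.

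The list for the Cdkn2a and Cdkn2b locus was measured at 24 of 24 genes. It includes Polycomb subunits, Ezh2 itself among them, transcription factors, and Mtap, which is a neighbour of Cdkn2a. By limma 0 passed, and the median was 0.03. At an unadjusted p under 0.05 there were 2 with a higher (8.33%) and 1 with a lower mean (4.17%). These shares are near the 5.23% and 5.45% of all probe sets. Jund, an AP-1 factor, differed by 0.24 (SE 0.06, adjusted p = 0.202), Twist1 by 0.21 (SE 0.06, adjusted p = 0.306) and Ezh1, the other catalytic subunit, by -0.11 (SE 0.05, adjusted p = 0.434). The Polycomb repressive complex 1 genes Bmi1 and Cbx7, which restrain this locus in cultured cells, differed by 0.17 (SE 0.09) and -0.01 (SE 0.08).

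Of 14 genes listed from the imprinted region around Cdkn1c, 12 were measured. The list goes by position and does not mean that Cdkn1c and a listed gene such as Igf2 share their control. By limma 0 passed, and the median was 0.05. At an unadjusted p under 0.05 there were 2, both with a higher mean (16.7%, against 5.23% of all probe sets). Igf2, the growth factor expressed from the paternal allele, read 9.36, 9.27, 9.12, 9.04 and 8.81 in wild-type and 9.49, 9.91, 10.43 and 9.42 in Ezh2-deficient hearts. The groups did not overlap, as in 1.79% of all probe sets with Ezh2-deficient hearts higher. Ezh2-deficient heart 3 was the highest, as it was for Cdkn1c. The difference was 0.70 (SE 0.20, limma adjusted p = 0.263); the e hearts gave 0.14 and the x hearts 1.18. Osbpl5, also without overlap but with a gap of only 0.008, differed by 0.16 (SE 0.06, limma adjusted p = 0.369). Tnfrsf23 differed by 0.12 (SE 0.07). Igf2 and Osbpl5 were named for a small p, so their lack of overlap adds no evidence. The genes next to Cdkn1c, Kcnq1 and Slc22a18, differed by -0.10 (SE 0.09) and -0.01 (SE 0.05).

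Genes that feed into D-type cyclins or their inhibitors were measured at 24 of 25, with a median of 0.10. By limma 1 rose over all probe sets, Tgfb3, where 0.0347% of all probe sets passed. At an unadjusted p under 0.05 there were 4 in all with a higher (16.7%) and 1 with a lower mean (4.17%). Over all probe sets these shares were 5.23% and 5.45%. Tgfb3, a ligand whose family induces Cdkn2b in many cells, read 8.65, 8.59, 8.60, 8.54 and 8.27 in wild-type and 9.09, 9.12, 9.13 and 9.12 in Ezh2-deficient hearts. The groups did not overlap, as in 1.79% of all probe sets with Ezh2-deficient hearts higher. Tgfb3 was named for a small p, so this lack of overlap adds no evidence. The 4 Ezh2-deficient hearts lay within 0.04 of each other (difference 0.58, SE 0.07, limma adjusted p = 0.0407, up to 0.147 when 1 heart was left out). It passed without wild-type heart 1 or 5 and not without any single other heart. It did not pass with the Y-linked mean as a covariate (0.58, adjusted p = 0.1), among e hearts (0.49, adjusted p = 0.651) or among x hearts (0.65, adjusted p = 0.27). Tgfb2 differed by 0.44 (SE 0.10, adjusted p = 0.19). Fbxo31, part of a ubiquitin ligase that degrades cyclin D1, differed by -0.25 (SE 0.07, adjusted p = 0.24). Egr1, an immediate early gene, differed by 0.88 (SE 0.25, adjusted p = 0.263), and Myc by 0.22 (SE 0.13, adjusted p = 0.573).

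**Figure D4:**
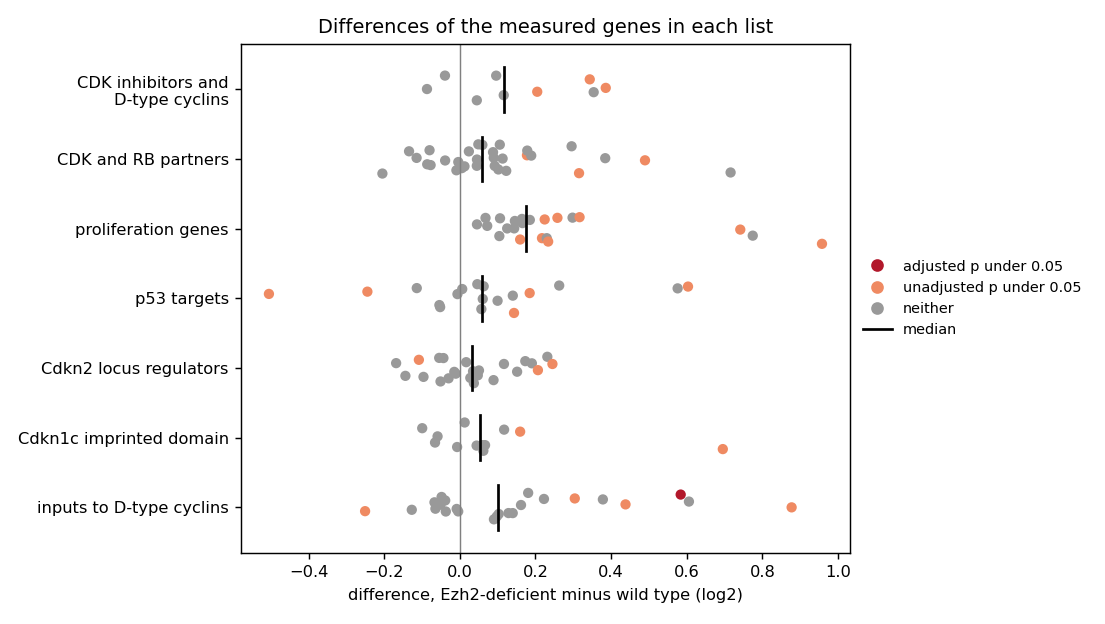
Difference of every measured gene of each list, Ezh2-deficient minus wild type (log2), 1 point per gene, coloured by whether the limma adjusted or only the unadjusted p was under 0.05, with the list median as a black line; the vertical scatter has no meaning. A single point, Tgfb3 at 0.58 among the inputs to D-type cyclins, passed over all probe sets, and all 22 proliferation genes lie above 0.

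The genes whose profiles over the 9 arrays were most like those of the 3 members with the smallest p were found by the root-mean-square difference of mean-centred log2 values. For Ccnd2, whose own values deviated from their mean by 0.222 on this measure, they were Pdlim7 (0.039), Bcl2 (0.0679) and App (0.0687). For Cdkn2a (0.135) they were Il4ra (0.0306), Frmd8 (0.0434) and Gpx7 (0.0443), and for Cdkn2c (0.249) Mptx1 (0.0898), Cytip (0.105) and Spib (0.111). Among the other members, the nearest to Ccnd2 was Cdkn2a, at rank 340 of the genes read, and Ccnd1 stood at rank 2271. The difference between Ccnd2 and Cdkn2a was 0.136, about as large as Cdkn2a's own deviation of 0.135. Ranked by nearness to Cdkn2a, Ccnd2 stood at 5866.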

How the data were processed

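Gene expression was measured in 9 adult mouse hearts, 1 array each, 5 wild type and 4 Ezh2-deficient by the description label. The deposited values are log2 expression values per probe set, which the authors made by RMA in Affymetrix Power Tools, as the submitters' processing notes name them, with no version or setting stated there. Their span of 2.18 to 15.02 and the method show that they are log2. The table held 28815 probe sets, of which 21780 had 1 gene symbol, 1605 several and 5430 none in the annotation used; 21689 of the probe sets with 1 symbol were matched to the reference by gene identifier. RMA pulls dim values together, so folds of dim genes may be understated where the signal is above background, which was not measured. Depth does not apply to arrays; their number limits the precision, with a median standard error of 0.0674.

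Differences (Ezh2-deficient minus wild type) were tested with limma 3.58.1 in R 4.3.3 (lmFit, eBayes), two-sided, at a Benjamini-Hochberg adjusted p of 0.05 across the probe sets; single genes also by exact permutation. The fit was tested on simulated data. The labels name mice, so arrays were taken as separate animals. The titles of wild-type hearts 3 and 4 hold the same number and x, with a prime for heart 3 only. Whether this marks related samples is not stated. Replicate numbers follow sample order and pair nothing. The members and gene lists were chosen with earlier results of these data known. Named genes were all members and Ezh2. Up to 3 genes with the smallest p were named per pathway list and per marker list set beside a member. For the 3 members with the smallest p, their 3 nearest profiles were named. Cdk4, Cdk6, Rb1, Rbl1, Rbl2, Mdm2, Ccng1, Bmi1, Cbx7, Kcnq1, Slc22a18, Egr1, Myc and the neighbouring genes of the closing section were added after their values were seen. The marker lists described beside members were likewise picked after values were seen. Alternatives were further quantile normalization, median centring, a filter on dim probe sets, array weights, eBayes with trend and robust, the title letter as a block, each letter alone, a Y-linked covariate, arrays left out, and the mean over a gene's probe sets. Promoter windows are RefSeq's (GRCm38.p6).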

Additional observations from a re-analysis of the deposited data

Results flagged for a closer look

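A gap between 1 heart and the rest of its group larger than Dixon's critical value was found in 9 of 74 groups of hearts, 2 of them among the 18 of the members. Chance gives about 1 in 20 for separate groups. Genes read on the same arrays are not separate, so the count is no test. Cdkn1c read 9.55 in Ezh2-deficient heart 3, with the nearest other Ezh2-deficient heart at 9.14. Cdkn2b read 6.68 in wild-type heart 4, with the nearest wild-type heart at 7.01. Ezh2-deficient heart 3 was also apart at the top for Cdc25b (7.96) and for the red cell markers Alas2 (11.57), Slc4a1 (8.74) and Epb42 (6.17). The other Ezh2-deficient hearts all read 5.784 for Epb42, so any departure there would have been flagged. Wild-type heart 5 was apart at the bottom for Tgfb3 (8.27) and Eng (10.16). Tnfrsf23 read 6.71 in Ezh2-deficient heart 1, apart at the top.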

How the results depend on the processing

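Of 170 member values under alternatives, 166 kept their direction and stayed short of the threshold, 0 crossed it and 4 turned sign. The 4 were Cdkn1c (0.037 among x hearts and 0.0001 without the second Ezh2-deficient heart, against -0.04), Cdkn2b (-0.038) and Cdkn2d (-0.003), both among e hearts; the red cell markers Slc4a1 (-0.0295) and Epb42 (-0.045) also turned there. The lowest limma adjusted p of any member was 0.0738, for Ccnd2 with array weights (up to 0.651 in other settings). Leaving out each heart singly, Ccnd2 differed by 0.33 to 0.43, Ccnd1 by 0.21 to 0.46, Cdkn2a by 0.17 to 0.25, Cdkn2c by 0.25 to 0.40 and Cdkn1c by -0.1465 to 0.0001. Members at an unadjusted p under 0.05 were 3, and 2 to 5 over the alternatives: 5 with array weights or without wild-type array 1. Probe sets called over the table were 10 by limma, 17 with median centring or the letter as a block, 19 without dim probe sets, 37 with array weights, 3 with the Y-linked covariate, 5 without wild-type arrays 4 and 5, and 0 among e hearts (2183 at an unadjusted p under 0.05) or x hearts (3132), where fewer arrays were fitted; leaving out 1 array gave 3 to 15. The cause of the other shifts was not tested. Leaving out 1 array gave 0 or 1 calls among p53 targets (0 with all) and 0 to 1 among inputs to D-type cyclins (1 with all), and counts at an unadjusted p from 0 to 13 for proliferation genes (8 with all), 2 to 10 for CDK and RB partners (3 with all; 10 without wild-type array 1), 3 to 6 for p53 targets (5 with all; 3 without wild-type array 4 or 5 or Ezh2-deficient array 1, 2 or 4) and 4 to 11 for inputs (5 with all; 11 without wild-type array 1, 8 without 2). No paired analysis was possible because no letter and number of a title occur together in both groups; the numbers 2 and 4 do, each with e in 1 group and with x and a prime in the other, and nothing says that they mark a shared animal, litter or day. The table has no background measure, so whether the dim Cdkn2a and Cdkn2b signals are above background cannot be read from it.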

Other observations

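The genes on either side of the members, 18 in all on the mouse reference, were all read. By limma 0 passed, and 0 had an unadjusted p under 0.05; the smallest adjusted p was 0.475. Their differences ran from -0.14 for Faf1, next to Cdkn2c, to 0.57 for Apold1 (SE 0.28), an endothelial early response gene next to Cdkn1b. Mtap, on the other side of Cdkn2a from Cdkn2b, differed by 0.04 (SE 0.03), and Tigar and Parp11, on either side of Ccnd2, by -0.10 (SE 0.06) and -0.07 (SE 0.06).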
